A study of Saccharomyces cerevisiae with 6 samples.

Results

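The sulfate uptake and assimilation genes of budding yeast were examined in the ThrRS editing–defective strain *ths1-C268A* and in WT. The 10 genes were taken by name from a table of 7122 genes: the permeases *SUL1* and *SUL2*, and *MET3*, *MET14*, *MET16*, *MET5*, *MET10*, *MET1*, *MET8* and *MET22*, which act between sulfate and sulfide. All 10 were found and passed the filter on low values. RNA was measured in 3 *ths1-C268A* and 3 WT samples, lettered A to C within a strain, from cultures in YPD, a rich medium, that were grown at 30 °C and then held at 37 °C for 2 h. *ths1-C268A* has a Cys-to-Ala change, introduced by CRISPR, at the editing site of threonyl-tRNA synthetase (ThrRS), which joins Thr to its tRNA and clears Ser attached in error. The paper states that the mutation also makes ThrRS less stable at 37 °C, but not at 30 °C. An editing defect and a less stable ThrRS cannot be told apart in these samples. The background of both strains is BY4741, which carries deletions in *HIS3*, *LEU2*, *MET17* and *URA3*. Because the mutation changes a single codon, the amount of *THS1* mRNA says nothing on whether the samples are labelled correctly.

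Yeast takes up sulfate through plasma membrane permeases and activates it with ATP to adenylyl sulfate (APS) and then to phosphoadenylyl sulfate (PAPS). PAPS is reduced to sulfite and sulfite to sulfide, and the sulfide is joined to O-acetylhomoserine by the product of *MET17* to give homocysteine, the precursor of methionine and cysteine. Many of these genes are activated by Met4, which is brought to DNA by Cbf1 or by Met31 and Met32, and by Gcn4, the activator of the general amino acid control pathway. Strains without *MET17* are known as methionine auxotrophs. *MET17* had 0 fragments in each of the 6 samples, so the route from sulfate was followed here in cells in which its product could not be used by that enzyme.

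The values are FPKM as deposited, fragment counts divided by coding length and by the size of the library, so levels of different genes are given per length. A trend with length that differed between samples, described below, limits comparisons between genes of different length. Undoing that division returned whole fragments for 100% of values above 0, within 0.01 of a fragment. The genes held 17806318 to 19114041 fragments in the *ths1-C268A* samples and 16597937 to 17761143 in the WT samples. Of the fragments by which the values were scaled, 10.6 to 13.4% in *ths1-C268A* and 18.3 to 18.7% in WT were not counted in any listed gene. The scaling between the strains thus bears on small differences. The 10 genes had 189 to 7554 fragments each in a sample. None of them overlaps another gene of the table on either strand. Transcripts that are not listed, or that reach beyond the listed coordinates, were not examined. Whether the libraries kept strand could therefore still bear on their fragments. The RNA is from whole cultures, in which more cells that express a gene and more RNA per cell cannot be told apart.

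The upstream regions of the genes carry recognition sequences of the regulators named above, and some are shown because the genes differ in which ones they hold. In 500 bp before the start codon in the RefSeq R64 genome, 9 of the 10 genes held the Cbf1 core CACGTG, 7 held the Met31 and Met32 core TGTGGC and 4 held the Gcn4 site TGACTCA, each counted on both strands. For comparison, 5976 such windows were read, for nuclear protein-coding genes with R64 coordinates and 500 bp upstream on the chromosome. Of these, 6.24% held the Cbf1 core, 14.3% the Met31 and Met32 core and 4% the Gcn4 site. The motifs did not overlap one another in the 10 windows. Both the Cbf1 and the Met31 and Met32 cores stood in 7 of the 10 windows and in 1.15% of all windows, and all 3 motifs stood before *MET16*, *MET5* and *MET22* and in 8 windows in all. *SUL1* had a Gcn4 site alone, and *MET1* and *MET8* had a Cbf1 core alone. Every match lay closer to its gene than the next gene upstream. A match of letters is not a measured binding site. The stretches below are written toward the gene, with the motifs in capitals (CACGTG for Cbf1, TGTGGC or its reverse complement GCCACA for Met31 and Met32, TGACTCA for Gcn4). The Met31 and Met32 core of *MET22* lies nearer its gene, outside the stretch shown. The stretches shown were picked by the fold changes of their genes. They compare the gene with the largest change, *MET16*, and others that rose with *SUL2* and *MET1*, which did not pass the test. Whether the motifs bear on the changes was not tested.
*MET16*, chrXVI:877759-877825, minus strand: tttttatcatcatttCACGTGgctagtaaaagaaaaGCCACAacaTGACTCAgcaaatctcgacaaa
*MET14*, chrXI:439557-439628, minus strand: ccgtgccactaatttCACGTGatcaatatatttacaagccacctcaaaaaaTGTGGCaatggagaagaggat
*MET10*, chrVI:213048-213127, plus strand: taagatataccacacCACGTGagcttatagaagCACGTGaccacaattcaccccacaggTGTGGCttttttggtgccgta
*MET22*, chrXV:207291-207345, minus strand: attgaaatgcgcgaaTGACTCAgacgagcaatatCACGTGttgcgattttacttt
*SUL2*, chrXII:323195-323276, plus strand: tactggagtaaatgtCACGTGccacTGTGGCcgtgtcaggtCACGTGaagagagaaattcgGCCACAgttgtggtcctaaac
*MET1*, chrXI:571329-571364, plus strand: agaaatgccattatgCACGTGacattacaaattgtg

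**Figure D1:**
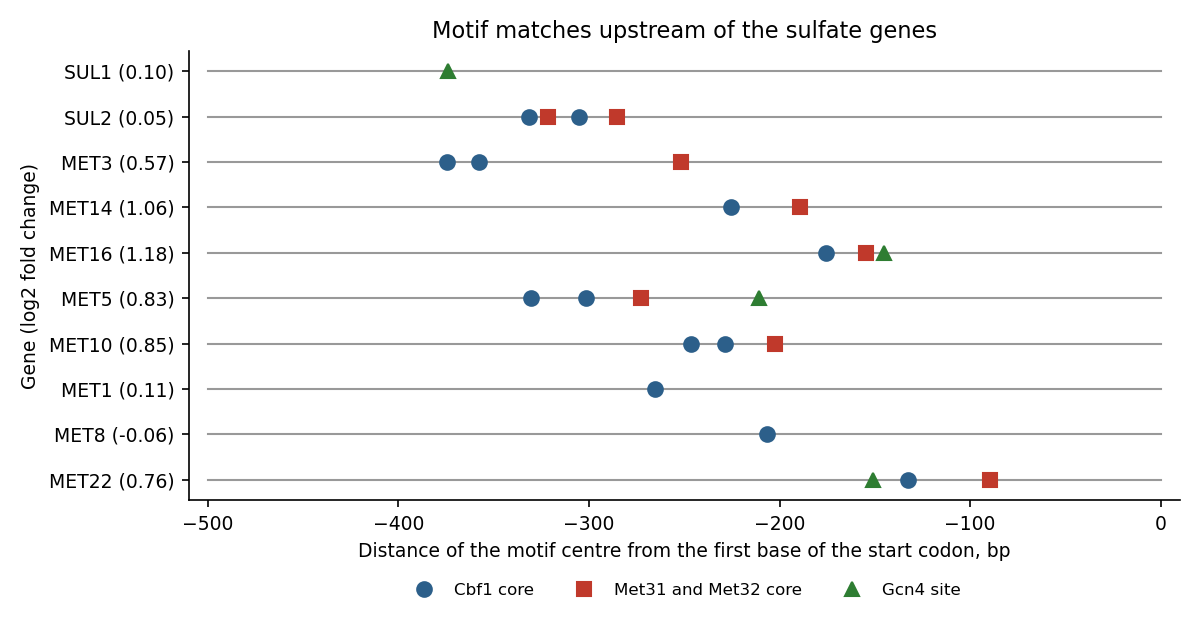
Positions of the 3 motifs in the 500 bp before the start codon of each gene, with distance from the start codon in bp on the x axis and the log2 fold change of the gene, *ths1-C268A* over WT, in parentheses on the y axis. The 6 genes that passed as higher (0.57 or more) all had a Cbf1 core with a Met31 and Met32 core, and so did *SUL2* (0.05). This was read after the fold changes were known. Fold changes were not compared over all 69 windows with both cores, and a link between motif and change was not tested.

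At 37 °C, 6 of the 10 genes were higher in *ths1-C268A* than in WT. These encode the enzymes of sulfate activation (*MET3* and *MET14*), PAPS reduction (*MET16*), both subunits of sulfite reductase (*MET5* and *MET10*) and the phosphatase that removes the by-product of PAPS reduction (*MET22*). Their log2 fold changes ran from 0.57 for *MET3* to 1.18 for *MET16*. The permease genes and the genes of siroheme synthesis did not pass the test. In limma, fitted on log2(FPKM + 1) over the 6447 genes that averaged 1 FPKM or more, 14.2% of all genes were higher and 12.1% were lower at an adjusted p under 0.05. None of the 10 genes was lower, also at an unadjusted p under 0.05 and in limma-voom on the fragments. The median log2 fold change was 0.66 over the 10 genes and -0.0025 over all genes tested. The 10 genes together made up 0.103, 0.112 and 0.11% of the fragments in the *ths1-C268A* samples, against 0.0789, 0.0794 and 0.0761% in the WT samples. These shares are not divided by length, so long genes such as *MET10* and *MET5* weigh more in them. The FPKM of the 10 genes summed to 455.3, 477.6 and 466.0 in *ths1-C268A* and 311.8, 313.7 and 299.0 in WT. In the values as deposited, all *ths1-C268A* samples lay above all WT samples for 7 of the 10 genes, the 6 that passed and *SUL1*, and for 24.5% of all genes tested. For *SUL1* that separation reversed after the length and GC correction given below.

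**Figure D2:**
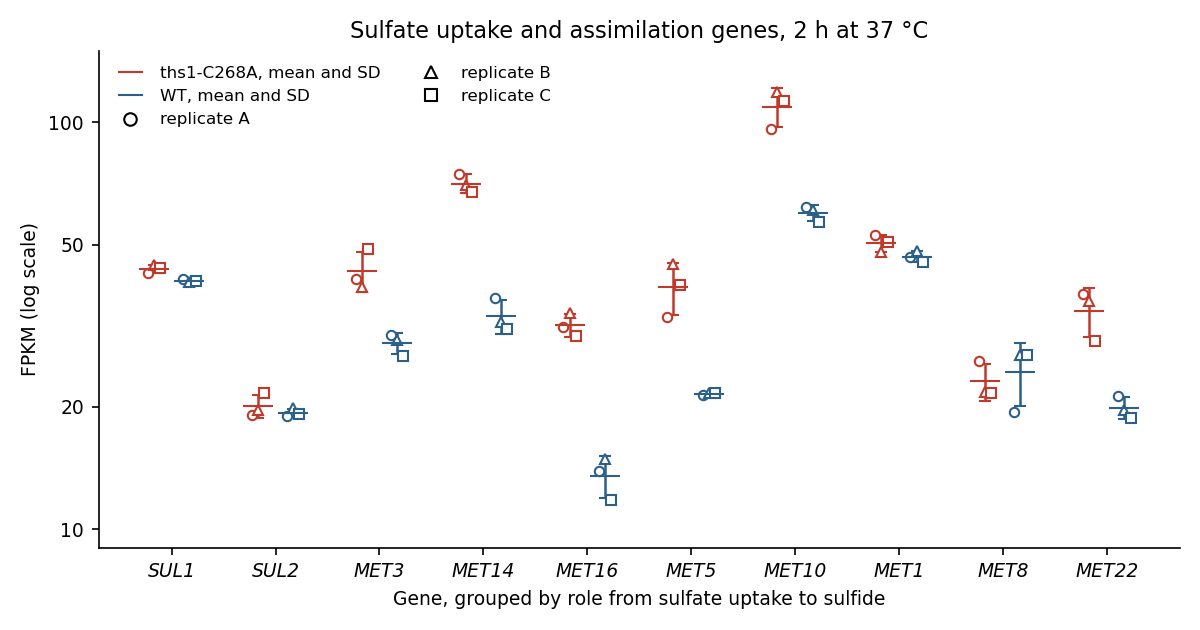
FPKM of the 10 genes on a log axis, with *ths1-C268A* to the left of WT for each gene. Symbols are replicates A, B and C, horizontal bars are means and error bars are the SD (n = 3). The groups stand apart for *MET3*, *MET14*, *MET16*, *MET5*, *MET10* and *MET22* and lie close together for *SUL1*, *SUL2*, *MET1* and *MET8*.

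Sulfate enters through Sul1 and Sul2, high-affinity permeases of the plasma membrane. *SUL1* (YBR294W, chromosome II of R64, 789235 to 791814) was 42.7, 44.6 and 43.8 FPKM in *ths1-C268A* (replicate A first, then B and C, here and for each gene), against 41.2, 40.4 and 40.7 FPKM in WT. As deposited, its *ths1-C268A* samples were all above WT, but by little: the log2 fold change was 0.10, with a 95% interval of -0.079 to 0.27 (adjusted p = 0.369 from limma). After the length and GC correction given below, its *ths1-C268A* samples were all below WT. *SUL2* (YLR092W, chromosome XII, 323544 to 326225) was 19.1, 19.6 and 21.6 FPKM in *ths1-C268A* and 19.0, 19.8 and 19.2 FPKM in WT. The groups overlapped, and its log2 fold change was 0.05 (95% interval -0.18 to 0.285, adjusted p = 0.731 from limma). For both permeases the interval leaves out an increase of the size seen for *MET3*. *SUL1* was the more abundant permease mRNA in every sample, with a log2 ratio of *SUL1* to *SUL2* of 1.12 ± 0.088 in *ths1-C268A* and 1.08 ± 0.046 in WT (SD, n = 3 each). The aligned coding sequences of the permeases are 69.1% identical, and the longest stretch they share without a difference is 24 bases.

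The first intracellular steps are carried out by ATP sulfurylase, encoded by *MET3*, which forms APS, and APS kinase, encoded by *MET14*, which forms PAPS. *MET3* (YJR010W, chromosome X, 456239 to 457774) was 41.3, 39.4 and 48.8 FPKM in *ths1-C268A*, against 30.1, 29.1 and 26.7 FPKM in WT. The groups did not overlap, and *MET3* rose by 0.57 on the log2 scale (standard error 0.11, adjusted p = 0.00796 from limma), the smallest increase of the 6. *MET14* (YKL001C, chromosome XI, 438777 to 439385) was 74.9, 70.0 and 67.4 FPKM in *ths1-C268A* and 37.0, 32.3 and 31.0 FPKM in WT. This was an increase of 1.06 (standard error 0.095, adjusted p = 3.74e-04 from limma). The levels of these consecutive enzymes moved apart: within a sample, the log2 ratio of *MET3* to *MET14* was -0.86, -0.83 and -0.47 in *ths1-C268A* and -0.3, -0.15 and -0.22 in WT. A ratio within a sample does not depend on the scaling between libraries, but it is not corrected for the length trend described below. After the length and GC correction the log2 fold changes were 0.49 for *MET3* and 1.17 for *MET14*. The ratios of the strains did not overlap, although *ths1-C268A* replicate C, in which *MET3* was highest and *MET14* lowest, lay closest to WT.

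PAPS reductase, encoded by *MET16*, reduces PAPS to sulfite with thioredoxin and releases phosphoadenosine phosphate (PAP). *MET16* (YPR167C, chromosome XVI, 876847 to 877632) was 31.4, 34.0 and 29.8 FPKM in *ths1-C268A*, against 13.9, 14.9 and 11.8 FPKM in WT, where it was the lowest of the 10 genes. Its mean FPKM was 2.35 times as high in *ths1-C268A* as in WT, the largest change of the 10. The fit on log2(FPKM + 1) gave a log2 fold change of 1.18 (SE 0.12, limma adjusted p = 6.24e-04). Among all 6447 genes tested, 52 had a larger log2 fold change. The log2 ratio of *MET14* to *MET16* was 1.16 ± 0.11 in *ths1-C268A* and 1.31 ± 0.16 in WT (SD, n = 3 each), and the ranges of the strains overlapped. PAP is broken down to AMP by the phosphatase encoded by *MET22*, also known as *HAL2*. *MET22* (YOL064C, chromosome XV, 206103 to 207176) was 37.8, 36.5 and 29.1 FPKM in *ths1-C268A*, against 21.2, 19.6 and 18.8 FPKM in WT. *ths1-C268A* replicate C was the lowest of its strain but above every WT sample, and *MET22* rose by 0.76 (standard error 0.12, adjusted p = 0.00468 from limma).

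Sulfite reductase, which reduces sulfite to sulfide with NADPH, is built from an alpha subunit encoded by *MET10* and a siroheme-binding beta subunit encoded by *MET5*. *MET10* (YFR030W, chromosome VI, 213312 to 216419) was the most abundant of the 10 mRNAs in both strains, at 96.2, 118.9 and 113.1 FPKM in *ths1-C268A* and 62.0, 60.9 and 56.9 FPKM in WT. It rose by 0.85 on the log2 scale (standard error 0.098, adjusted p = 0.00119 from limma). *MET5* (YJR137C, chromosome X, 678957 to 683285) was 33.3, 44.8 and 39.9 FPKM in *ths1-C268A* and 21.4, 21.6 and 21.6 FPKM in WT, an increase of 0.83 (standard error 0.12, adjusted p = 0.00303 from limma). Both subunit genes were lowest in replicate A among the *ths1-C268A* samples, and in every sample they lay above WT. The ratio of the subunit mRNAs overlapped between the strains: the log2 ratio of *MET5* to *MET10* was -1.53, -1.41 and -1.5 in *ths1-C268A*, against -1.53, -1.5 and -1.4 in WT. The beta subunit mRNA was 0.358 times as abundant per length as the alpha subunit mRNA in *ths1-C268A* and 0.36 times in WT. The replicates of *MET5* in WT had a coefficient of variation of 0.494%, less than the 2.24% that counting alone gives for its fragments. In *ths1-C268A* it was 14.7%, where counting alone gives 1.67%. The fit used a variance shared by both strains.

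Siroheme, the cofactor of sulfite reductase, is made from uroporphyrinogen III by the methyltransferase encoded by *MET1* and the dehydrogenase and ferrochelatase encoded by *MET8*. *MET1* (YKR069W, chromosome XI, 571612 to 573393) was 52.8, 48.0 and 50.8 FPKM in *ths1-C268A* and 46.6, 48.3 and 45.4 FPKM in WT. The groups overlapped, with a log2 fold change of 0.11 (95% interval -0.075 to 0.29, adjusted p = 0.333 from limma). *MET8* (YBR213W, chromosome II, 650368 to 651192) was 25.9, 21.8 and 21.7 FPKM in *ths1-C268A* and 19.4, 26.8 and 26.8 FPKM in WT, with a log2 fold change of -0.06 (95% interval -0.40 to 0.27, adjusted p = 0.774 from limma). *MET8* had the widest spread of the 10 genes in WT, with a coefficient of variation of 17.6% where counting alone gives 4.84%, and WT replicate A was the low sample. The upper limits of the intervals of *MET1* and *MET8* lay below the lower limits of the intervals of *MET5* and *MET10*, the genes of the enzyme that uses siroheme, but the difference between these fold changes was not tested.

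**Figure D3:**
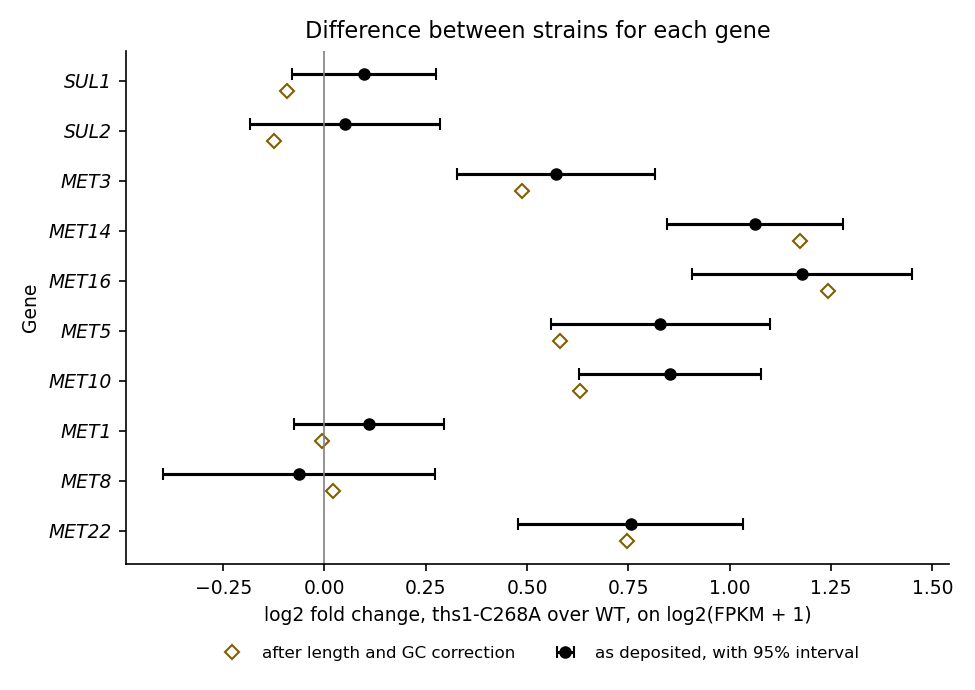
Log2 fold change of the 10 genes, *ths1-C268A* over WT, on log2(FPKM + 1), with the 95% interval from limma as bars (3 samples per strain) and the value after a correction for coding length and GC content as open diamonds. The intervals of *MET3*, *MET14*, *MET16*, *MET5*, *MET10* and *MET22* lie above 0, and those of *SUL1*, *SUL2*, *MET1* and *MET8* cross it.

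The order of the levels differed between the strains. In *ths1-C268A* it was *MET10* (mean 109.4 FPKM), *MET14*, *MET1*, *SUL1*, *MET3*, *MET5*, *MET22*, *MET16*, *MET8* and *SUL2* (20.1 FPKM). From *SUL1* down to *MET16*, each gene overlapped its neighbour in the range of its samples, so the order within that stretch is not resolved. In WT it was *MET10* (mean 59.95 FPKM), *MET1*, *SUL1*, *MET14*, *MET3*, *MET8*, *MET5*, *MET22*, *SUL2* and *MET16* (13.5 FPKM). There, *MET3* and *MET8*, *MET8* and *MET5*, and *MET22* and *SUL2* overlapped as neighbours. *MET14* thus stood above *MET1* and *SUL1* in each *ths1-C268A* sample and below both in each WT sample. The median protein-coding gene tested had a mean of 59.9 FPKM in *ths1-C268A* and 58.4 FPKM in WT. *MET10* and *MET14* (mean 70.8 FPKM) were above it in *ths1-C268A*. In WT, *MET10* alone had a mean above it, by little, and its replicate C, at 56.9 FPKM, lay below it.

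Fold change rose with coding length in these libraries, which bears on genes as long as *MET5* (4329 bp) and *MET10* (3108 bp) and as short as *MET14* (609 bp). Log2 fold change and coding length had a Spearman's rho of 0.371 over 6176 protein-coding genes, and genes do not serve as replicates. For *ths1-C268A*, the correlation of a gene's deviation from its mean with its length was -0.0842 in replicate A, 0.363 in B and 0.391 in C. For WT it was -0.142 in A, -0.318 in B and -0.434 in C. After correction for length and GC content, the log2 fold change was 0.58 for *MET5*, 0.63 for *MET10*, 1.17 for *MET14* and 1.24 for *MET16*, and the same 6 genes passed. The corrected values of *SUL1*, *SUL2* and *MET1* were -0.09, -0.12 and -0.0054, and that of *MET8* was 0.02, and none of them passed. Relative to the WT mean, corrected *SUL1* was -0.0575, -0.127 and -0.0913 in *ths1-C268A* and -0.025, -0.016 and 0.041 in WT. Every *ths1-C268A* sample thus lay below every WT sample. In *ths1-C268A* replicate A, in which *MET5* and *MET10* were lowest, the corrected *MET5* value lay 0.476 above the WT mean on the log2 scale, against 0.672 and 0.597 in replicates B and C.

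**Figure D4:**
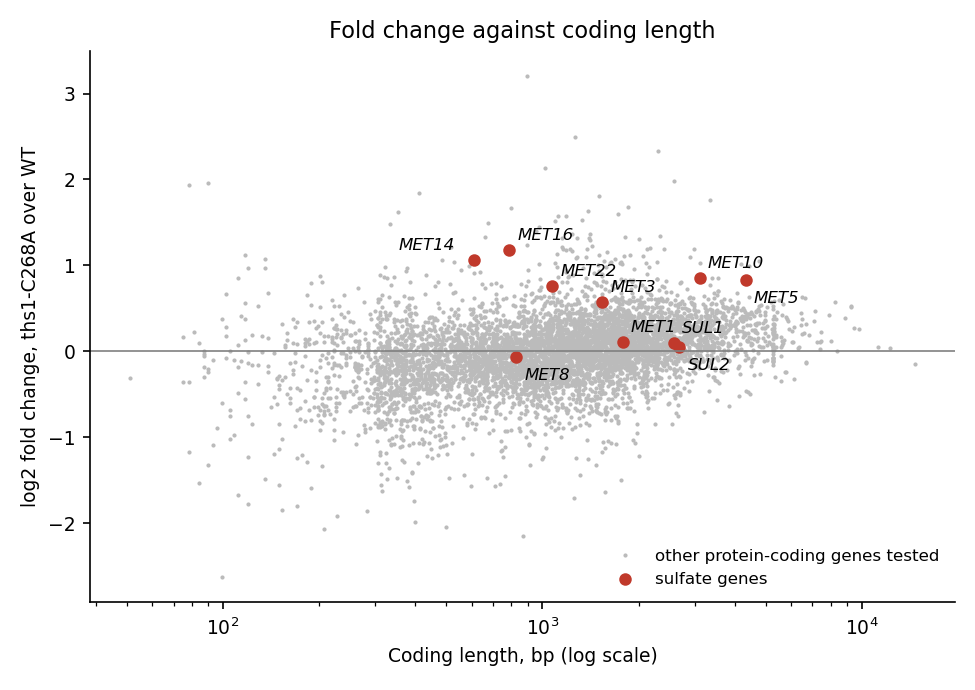
Log2 fold change, *ths1-C268A* over WT, against coding length in bp on a log axis for the protein-coding genes tested (grey) and the 10 sulfate genes (red, labelled). The cloud tilts upward with length (Spearman's rho 0.371), while *MET14* (609 bp) and *MET16* (786 bp), at the short end, lie at 1.06 and 1.18.

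Each of the 6 calls held in all 19 alternative analyses, with a largest adjusted p of 0.0377 for *MET3* and 0.0237 for *MET22* from limma. When the protein-coding total was made equal in all samples, the median over all tested genes was -0.115 on the log2 scale, and 29% of the calls were in the higher direction, against 53.9% with the scaling as deposited. In limma-voom on the fragments, 30.6% of the calls were in that direction. With the equal total *MET3* was at 0.46 and *MET16* at 1.07, both past the threshold, and *SUL1*, *SUL2* and *MET1* turned just below 0.

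Genes beside the route were read from the same fit for 32 genes in 6 lists, and 12 of the 31 tested were higher and 1 was lower, beside 14.2% higher and 12.1% lower over all genes tested. The lists are short, and their counts are given as a description. In the steps from homoserine and sulfide to methionine, 3 of 4 tested genes were higher. *MET6*, methionine synthase, was 590.4, 841.8 and 721.1 FPKM in *ths1-C268A*, against 149.0, 141.9 and 131.0 FPKM in WT. It had the largest log2 fold change of them (2.33), followed by *MET13*, methylenetetrahydrofolate reductase (1.11), and *MET2*, homoserine O-acetyltransferase, which makes the acceptor of sulfide (0.51). An ORF on the other strand overlaps 379 bases of *MET2*. *MET12* did not pass (0.17). Of the transsulfuration genes, which link homocysteine and cysteine, 3 of 4 were higher: *STR3* (1.32), *CYS3* (0.94) and *STR2* (0.63). *CYS4* did not pass (0.31, adjusted p = 0.0607 from limma). *CYS3* reached 457.1 FPKM in *ths1-C268A* replicate B, against 253.6 and 261.4 FPKM in replicates A and C, and 131.4 to 196.5 FPKM in WT. It lost its call without WT replicate B or C (adjusted p = 0.0631 and 0.0766 from limma). The S-adenosylmethionine synthetase genes *SAM1* (1.32) and *SAM2* (1.21), which are close in sequence and can share fragments, were higher, and *SAH1* did not pass (0.14).

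Of 6 genes for regulators of the route, 1 was higher, a share near the 14.2% of all genes tested, so the count says nothing particular to the list. This was *MET4*, the activator of the sulfur genes, at 136.8, 143.3 and 165.2 FPKM in *ths1-C268A* and 118.9, 113.4 and 118.9 FPKM in WT, or 0.34 higher on the log2 scale (SE 0.091, limma adjusted p = 0.0293). This call was lost without *ths1-C268A* replicate C or any 1 of the WT samples (adjusted p = 0.0533 to 0.122 from limma), with an equal protein-coding total (0.0886), in limma-voom (0.0783) and after the length and GC correction (0.121). *CBF1* was 137.4, 133.9 and 124.3 FPKM in *ths1-C268A* and 133.5, 120.6 and 129.9 FPKM in WT (log2 fold change 0.04, 95% interval -0.14 to 0.23). *MET31*, *MET32*, *MET28* and the ubiquitin ligase gene *MET30* did not pass. *MET28* had 11 to 39 fragments per sample and an ORF on the other strand.

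Of 9 genes that supply reductant and cofactors, 2 were higher and 1 was lower. These counts are near the shares over all genes tested (14.2% higher and 12.1% lower) and are no result about the list. *ZWF1*, glucose-6-phosphate dehydrogenase, a source of NADPH, had a log2 fold change of 0.54, and *TRX2*, a cytosolic thioredoxin, of 0.52. *TRX2* lost its call without WT replicate A or B or *ths1-C268A* replicate B (adjusted p = 0.0652, 0.0983 and 0.0566 from limma). *TRX1*, the other thioredoxin gene of the list, went the other way and did not pass (log2 fold change -0.18, adjusted p = 0.152 from limma). As deposited, its *ths1-C268A* samples all lay below WT, and its log2 fold change was 0.04 after the length and GC correction. *HEM2*, porphobilinogen synthase on the path to uroporphyrinogen III, was the lower gene, at 121.8, 103.8 and 113.6 FPKM in *ths1-C268A* and 156.5, 154.1 and 163.3 FPKM in WT, and fell by 0.48 on the log2 scale (standard error 0.085, adjusted p = 0.00659 from limma). *HEM3* and *HEM4*, which act after it, did not pass (log2 fold changes -0.13 and -0.27). Of 5 genes for other inorganic and sulfonate sulfur, *SSU1*, the sulfite efflux pump, was higher, at 155.9, 151.7 and 170.2 FPKM in *ths1-C268A*, against 65.3, 68.2 and 73.4 FPKM in WT. It was 1.196 higher on the log2 scale (SE 0.085, limma adjusted p = 1.36e-04), while its activator gene *FZF1* was at -0.03 and did not pass.

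**Figure D5:**
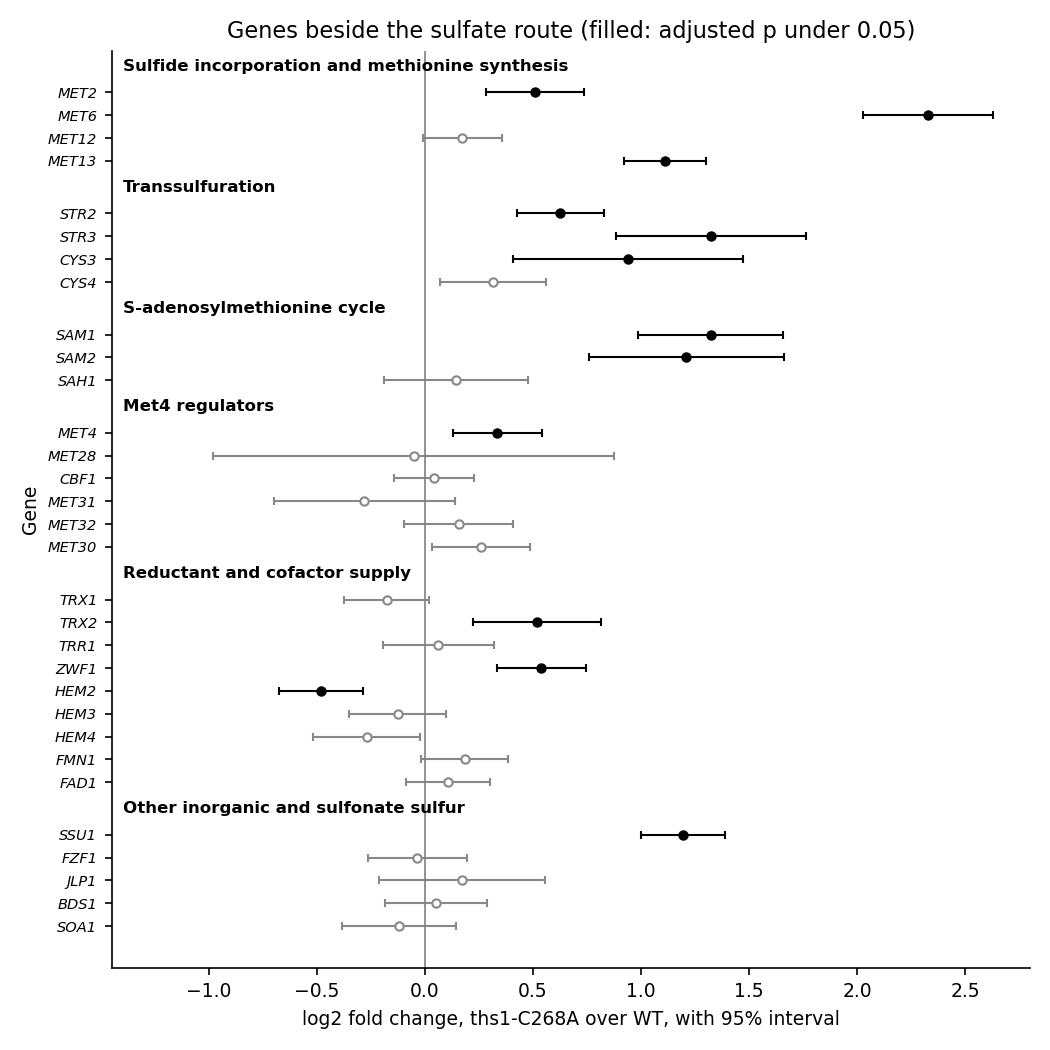
Log2 fold change, *ths1-C268A* over WT, of the 31 tested genes beside the sulfate route, by list, with the 95% interval from limma (3 samples per strain). Filled points passed an adjusted p of 0.05: 12 lie right of 0 and *HEM2* lies left of it.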

How the data were processed

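RNA was extracted with a Qiagen kit and sequenced by Novogene. The authors deposited FPKM for each gene and sample. The submitters' processing notes name HISAT2. Its version, the counting tool and the strand setting were not given in the sources used. Of 6045 genes with a RefSeq locus tag, 6033 had the coordinates of R64, from which sequences were read.

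The strains were compared with limma 3.58.1 (R 4.3.3), with a variance trend, on log2(FPKM + 1) for genes that averaged 1 FPKM or more, two-sided, strain as the only term, with Benjamini-Hochberg adjustment over all genes tested. The scale understates changes of low genes. The paper calls the samples biological replicates. The 10 genes and the lists were chosen with earlier results of these data known. Every gene of the route was named, and beside it each gene that passed and *MET17*, *MET4* and *CBF1*. Others are named after their values were seen. The model fits were tested on simulated fragments, drawn with the same spread in both strains and no trend with coding length. The real samples had a length trend and a wider spread between *ths1-C268A* replicates than between WT replicates. The simulation does not cover these features.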

Additional observations from a re-analysis of the deposited data

How the results depend on the processing

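Of the 10 sulfate genes, 6 were higher and none was lower in each of the 19 alternatives: no filter on low values or one of 10 FPKM, a pseudocount of 0.1 or 5, scaling by median ratios or to an equal protein-coding total, protein-coding genes only, no variance trend, limma-voom, the replicate block, the length and GC correction (loess, span 0.5) with and without the block, each sample left out, and an adjusted p under 0.01. The 4 genes that did not pass changed sign in some of them. The log2 fold changes of *SUL1*, *SUL2* and *MET1* were -0.0168, -0.0602 and -0.00496 with an equal protein-coding total, -0.0167, -0.062 and -0.00437 in limma-voom, and -0.0918, -0.123 and -0.00542 with the length and GC correction, with or without the block. That of *MET8* was 0.0203 with the correction and, with 1 sample left out, -0.211 (without WT replicate A) to 0.0128 (without WT replicate C), with 0.0126 without WT replicate B.

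Over all genes, 916 were higher and 783 were lower as deposited. With an equal protein-coding total 524 were higher and 1285 were lower, in limma-voom 613 and 1387, and at an adjusted p under 0.01, 296 and 248. With 1 sample left out, 356 to 1089 genes were higher and 288 to 1054 were lower, and the fewest were called without WT replicate B. Without WT replicate A 487 and 419 passed, without WT replicate C 419 and 376, and without *ths1-C268A* replicate B 600 and 527. Of the related genes, 1 was lower, 1 to 2 with a sample left out, and 3 with an equal protein-coding total and in limma-voom. With 1 sample left out, 9 to 13 of them were higher. The cause of these shifts was not tested. The labels do not say whether the letters A, B and C pair the samples. Deviations from the strain means correlated at -0.232, 0.0618 and -0.0115 across genes for samples of the same letter. For different letters they correlated at -0.205 to 0.209. With deviations taken from means of 3 samples, these values do not decide whether the samples were paired. With the letters as a replicate block, 683 genes were higher and 593 lower, and *MET4* had an adjusted p of 0.0512 from limma.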
